A study of Mus musculus with 6 samples.

Results

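The DNA replication and mitosis genes described here are 45 genes chosen by name, by a rule that uses no measured value: 22 genes of S phase, which license origins and copy DNA, and 23 genes of mitosis, which build the spindle and part the chromosomes. Earlier results of these data were known when the genes were chosen. All 45 were found in the deposited table of 55401 gene identifiers, 1 entry each. All 45 were among the 19227 genes kept by a filter on low counts and tested. The smallest count of any of them in any library was 413 among the S phase genes and 1241 among the mitosis genes.

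The libraries were made from mouse back skin at E15.5, a stage when the epidermis stratifies, in 2 groups of 3 embryos each, control and Prmt5 cKO. Prmt5 encodes an arginine methyltransferase, and per the series' title its loss is in the epidermis. Each library came from 1 embryo and held epidermis and dermis together, so p-values weigh the difference between groups against the spread between embryos. The deposited workbook is named for CRECT, which is also the name of a Cre transgene of the surface ectoderm, and the labels give neither the Cre driver, the Prmt5 alleles nor the genotype of the controls. The comparison asks how the 45 genes differ between the groups, and whether S phase genes differ from mitosis genes.

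Cells that divide express both sets in turn. S phase genes are switched on by E2F factors as a cell leaves G1, and mitosis genes are switched on later, from S phase into G2, through promoters with a CHR element and CCAAT boxes. In embryonic skin the basal cells of the epidermis divide, and so do many dermal cells, so messages of these genes in whole skin can come from both. In bulk tissue, fewer dividing cells of a type and less RNA per cell cannot be told apart.

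The promoters of the 45 genes were searched for the letters of these elements. Windows from 250 bases before to 50 bases after the start of a gene (RefSeq, GRCm38.p6) were at hand for 38 of the 45 genes, 4 of them with more than 1 window. They were searched on both strands for 3 motifs: E2F words (TTTCGCGC, TTTGGCGC, TTTCCCGC or TTTGCCGC), the CHR (TTTGAA) and the CCAAT box (CCAAT). An E2F word was found in 9 of 18 S phase genes, 0 of 20 mitosis genes and 2.6% of all 27025 genes with a window. A CHR was found in 2 of 18 S phase genes, 15 of 20 mitosis genes and 20.2% of all genes. A CCAAT box was found in 12 of 18 S phase genes, 17 of 20 mitosis genes and 41.1% of all genes. Within the windows of the 45 genes, E2F and CHR matches overlapped in 0 windows, E2F and CCAAT matches in 1, and CHR and CCAAT matches in 1. A match describes letters, and a missing match says only that these letters are not in this window.

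The windows of 4 genes are printed because their values carry the results below: both S phase genes that passed the test, Pola1 and Slbp, and the mitosis genes that differed most in each direction, Ttk and Ube2c. They run 5′ to 3′ on the strand of the gene, and capitals mark the matches (CCAAT reads ATTGG, the CHR reads TTCAAA and the E2F word of Pola1 reads GCGCCAAA where the match is on the other strand).
Pola1 (chrX:93632106-93632405, minus strand): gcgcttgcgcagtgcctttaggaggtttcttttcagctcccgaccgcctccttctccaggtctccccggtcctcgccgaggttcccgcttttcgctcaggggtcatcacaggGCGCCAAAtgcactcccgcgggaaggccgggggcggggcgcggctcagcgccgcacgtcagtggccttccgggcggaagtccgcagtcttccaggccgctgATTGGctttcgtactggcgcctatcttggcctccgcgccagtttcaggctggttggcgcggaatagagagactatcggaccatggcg
Slbp (chr5:33652525-33652824, minus strand): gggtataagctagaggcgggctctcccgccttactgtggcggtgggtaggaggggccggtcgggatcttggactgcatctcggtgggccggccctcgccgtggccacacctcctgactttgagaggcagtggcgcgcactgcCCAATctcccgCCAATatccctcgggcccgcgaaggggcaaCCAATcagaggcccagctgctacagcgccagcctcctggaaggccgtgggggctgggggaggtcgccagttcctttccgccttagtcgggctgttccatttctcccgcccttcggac
Ttk (chr9:83834439-83834738, plus strand): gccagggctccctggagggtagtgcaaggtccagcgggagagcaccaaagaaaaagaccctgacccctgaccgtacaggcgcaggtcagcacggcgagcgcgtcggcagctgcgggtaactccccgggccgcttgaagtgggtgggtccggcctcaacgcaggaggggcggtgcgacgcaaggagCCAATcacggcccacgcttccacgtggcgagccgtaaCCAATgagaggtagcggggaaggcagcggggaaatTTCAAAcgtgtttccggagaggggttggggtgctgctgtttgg
Ube2c (chr2:164769679-164769978, plus strand): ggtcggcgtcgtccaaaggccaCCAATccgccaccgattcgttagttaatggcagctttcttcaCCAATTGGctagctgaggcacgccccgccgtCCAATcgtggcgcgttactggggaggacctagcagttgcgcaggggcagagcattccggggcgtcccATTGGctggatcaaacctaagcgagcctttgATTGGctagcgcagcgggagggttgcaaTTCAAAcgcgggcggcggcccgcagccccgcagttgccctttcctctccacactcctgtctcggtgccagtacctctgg
The window of Pola1 held an E2F word beginning 138 bases before the start and a CCAAT box 37 bases before it. Slbp had 3 CCAAT boxes, at 108, 97 and 67 bases before the start, and neither of the other motifs. Ttk had CCAAT boxes 65 and 28 bases before the start and a CHR 7 bases after it. Ube2c had a CHR 29 bases before the start and 6 CCAAT matches between 228 and 57 bases before it. The pair with CHR elements and CCAAT boxes, Ttk and Ube2c, differed between the groups in opposite directions in the counts. The value of Ube2c is uncertain, as described with that gene below.

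Library totals ranged from 35667634 to 66122667 counts. Prmt5 was at 69.7, 40.1 and 67.9 CPM (counts relative to the TMM-scaled library size) in control replicates 1 to 3. In cKO replicates 1 to 3 it was at 27.1, 30.7 and 26.8 CPM. Control replicate 2 thus lay well below the other controls, and closer to the cKO libraries than to them. The means were 59.2 ± 16.6 and 28.2 ± 2.17 CPM (SD over 3 libraries each). Its log2 fold change was -1.07 ± 0.19 (SE; adjusted p = 0.00292 by the quasi-likelihood test of edgeR, written edgeR from here on). By exact permutation of the libraries (two-sided), p was 0.1, which is the lowest value that groups of 3 can reach. The tissue markers matched the label of mixed skin, and their balance differed between the groups. Suprabasal keratinocyte markers summed to between 14388 and 20023 CPM in controls and between 302.4 and 390.1 CPM in cKO, with 8 of 8 lower. Pan-epithelial markers summed to 5995 to 6457 against 1862 to 1906 CPM (13 of 15 lower, 1 higher), and basal keratinocyte markers to 5149 to 5565 against 2357 to 2719 CPM (5 of 7 lower). Dermal fibroblast markers summed to 36904 to 46435 against 56231 to 74833 CPM (9 of 9 higher), skeletal muscle markers to 3269 to 4562 against 7646 to 7847 CPM (9 of 9 higher) and endothelial markers to 567.9 to 643.6 against 731.6 to 811.5 CPM (7 of 7 higher). Leukocyte markers summed to 283.7 to 371.8 against 392.3 to 447.1 CPM (3 of 8 higher), and erythroid markers to 2161 to 3275 against 2807 to 5344 CPM (0 of 7 past the test). Epb42, an erythroid marker, was at 0 in at least 1 library, and no other tested marker was. The part of this shift in tissue makeup in the values below was not tested.

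Against that shift, the DNA replication and mitosis genes differed little. Of the 45 genes, 43 had a log2 fold change (cKO against control) smaller than 0.25 in size, 95.6% of them against 46.4% of all genes tested. The 2 others were Ttk, which was lower, and Ube2c, which was higher. Of all genes tested, 39.4% had a 95% interval within 0.5 of 0. The 45 genes were not matched to the others by level of counts, and the part of that level in the contrast was not tested. The 95% intervals of the 43 genes lay between -0.36 and 0.33. By sign, 23 of the 45 log2 fold changes were above 0 and 22 were below. The median was 0.004 for S phase genes, 0.025 for mitosis genes and -0.008 for all genes tested.

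At an adjusted p under 0.05, the quasi-likelihood test of edgeR called 10 of the 45 genes (22.2%), where 35.9% of all genes tested were called, 16.3% higher and 19.6% lower. Among S phase genes 0 were higher, 2 lower and 20 not called. Among mitosis genes 2 were higher, 6 lower and 15 not called. The share called was 9.09% of the S phase genes and 34.8% of the mitosis genes. Of the 8 genes called lower, 7 were no longer called with upper-quartile scaling, and the 22 values below 0 were above 0 with libraries scaled to basal keratins, as described after the single genes. The SD of the log2 fold changes over genes was 0.0877 in the S phase class and 0.231 in the mitosis class, and Ttk and Ube2c are the extremes of the second.

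**Figure D1:**
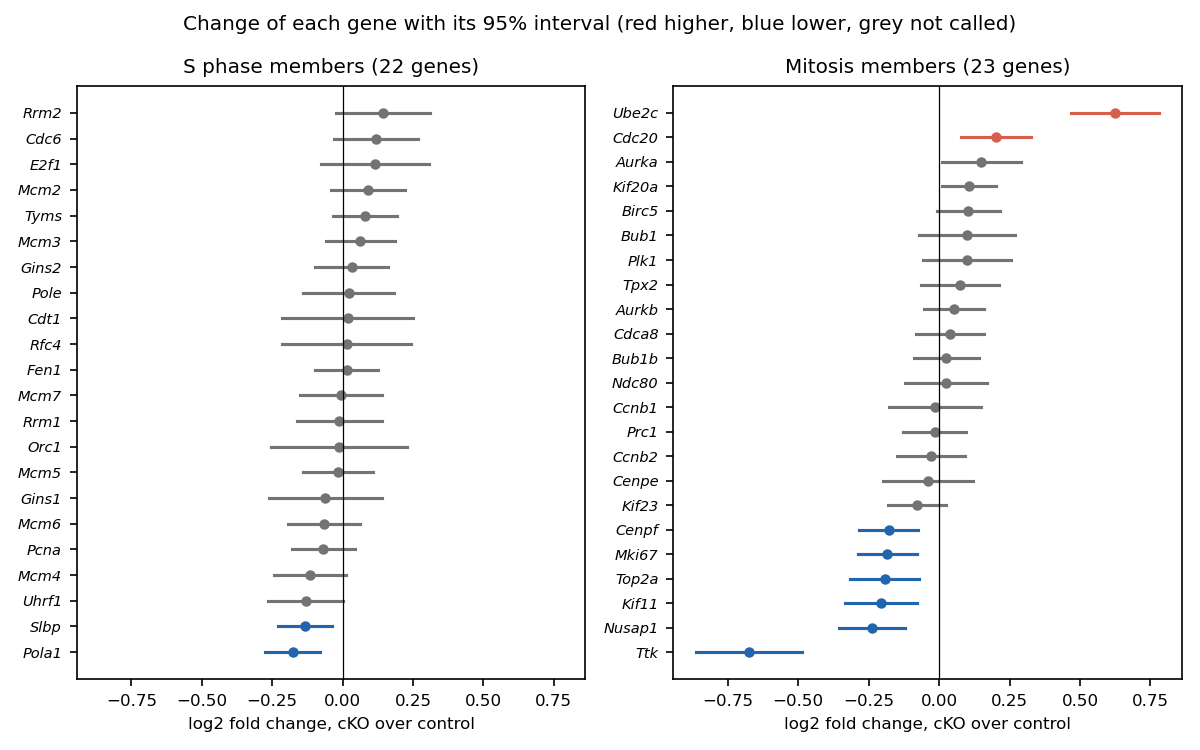
Log2 fold change (cKO against control) with its 95% interval for each of the 45 genes, S phase and mitosis genes apart, with genes past an adjusted p of 0.05 marked. All S phase intervals lie between -0.28 and 0.31, and only Ttk (-0.67) and Ube2c (0.62) lie beyond 0.25 in either direction.

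S phase is prepared by licensing, in which ORC and Cdc6 and Cdt1 load the MCM helicase onto origins before S phase starts. Levels of the 6 MCM subunits were close between the groups, with log2 fold changes of 0.091 for Mcm2, 0.063 for Mcm3, -0.12 for Mcm4, -0.017 for Mcm5, -0.066 for Mcm6 and -0.007 for Mcm7. These 6 proteins form 1 ring, and none of their genes was called. Mcm4 was at 154.4, 172.9 and 160.0 CPM in control replicates 1 to 3 and at 149.9, 154.2 and 145.5 CPM in cKO replicates 1 to 3. All 3 cKO libraries lay below all 3 controls, cKO replicate 2 only just below control replicate 1, and the adjusted p by edgeR was 0.146.

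The loaders differed as little. Cdc6, which brings MCM to the origin with Cdt1, was at 26.9, 28.6 and 27.1 CPM in controls and at 31.1, 29.2 and 29.3 CPM in cKO. The cKO libraries were all above the controls, and the log2 fold change of 0.12 ± 0.065 (SE) was not called (adjusted p = 0.201 by edgeR). Log2 fold changes were 0.018 for Cdt1, -0.013 for Orc1, the large ORC subunit, and -0.062 and 0.032 for Gins1 and Gins2, subunits of the GINS complex that activates the helicase. In controls Orc1 had the lowest level per length of the 45 genes, 3.25 CPM per kilobase of exon.

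At the fork, Pola1, the catalytic subunit of the polymerase that makes primers, was lower in cKO. It was at 84.1, 87.3 and 86.1 CPM in controls and at 74.7, 75.2 and 77.9 CPM in cKO. The groups did not overlap, and the SD within each was 1.59 and 1.75 CPM (n = 3 each). Its log2 fold change was -0.18 ± 0.04 (SE; adjusted p = 0.0128 by edgeR). The call was kept in 2 of 6 fits that each leave out 1 library, and was lost without control replicate 2 or 3 or cKO replicate 1 or 2, at adjusted p values up to 0.0536. Pola1 is on chromosome X (93304767 to 93632155, minus strand, GRCm38).

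The other fork genes were not called. Pcna, the sliding clamp, had the highest level per length of the 45 genes in controls (79.0 CPM per kilobase of exon). It was at 190.1, 196.6 and 181.8 CPM in controls and at 179.0, 184.5 and 178.5 CPM in cKO, so the groups overlapped, with a log2 fold change of -0.069 ± 0.049 (SE). Log2 fold changes were 0.021 for Pole, the leading strand polymerase, and 0.015 for Fen1, the flap nuclease of Okazaki fragments. The value was 0.015 for Rfc4 too, a subunit of the clamp loader.

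Genes that supply nucleotides and copy chromatin followed. Log2 fold changes were -0.011 for Rrm1 and 0.14 for Rrm2, the subunits of ribonucleotide reductase, and 0.079 for Tyms, thymidylate synthase, and none was called. Slbp, which binds the stem-loop of histone messages, was at 79.0, 79.7 and 79.6 CPM in controls and at 70.8, 73.1 and 73.2 CPM in cKO. The controls lay close together (SD 0.379 CPM, n = 3), and all cKO libraries lay below them. The log2 fold change was -0.13 ± 0.04 (SE; adjusted p = 0.0353 by edgeR), and the call was lost in all 6 fits without 1 library (adjusted p between 0.0759 and 0.128).

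Uhrf1, which brings the maintenance DNA methyltransferase to replicated DNA, was at 214.6, 212.4 and 207.7 CPM in controls and at 191.8, 206.6 and 181.2 CPM in cKO. The groups did not overlap, and cKO replicate 2 lay close to the lowest control. Its log2 fold change of -0.13 ± 0.058 (SE) was not called (adjusted p = 0.114 by edgeR). E2f1, a transcription factor of the G1 to S step, had a log2 fold change of 0.11 ± 0.084 (SE) and was not called.

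With TMM scaling Ttk had the log2 fold change farthest from 0 among the 45 genes, while with upper-quartile scaling (0.73 against -0.57) and with libraries scaled to basal keratins (1.43 against 0.12) it was Ube2c. Ttk encodes the checkpoint kinase Mps1 that holds a cell in mitosis until its chromosomes are attached. Ttk was at 52.3, 61.9 and 57.1 CPM in controls and at 35.8, 33.0 and 38.5 CPM in cKO. Every cKO library lay below every control, and the mean fell from 57.1 ± 4.77 to 35.8 ± 2.75 CPM (SD, n = 3), 62.7% of control. The log2 fold change was -0.67 ± 0.08 (SE; adjusted p = 3.61e-04 by edgeR), and it lay between -0.73 and -0.60 in the 6 fits without 1 library, all called. Ttk (ENSMUSG00000038379.15) is on chromosome 9 (83834689 to 83872389, plus strand, GRCm38), and no other annotated gene shares exonic bases with it.

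Bub1, Bub1b, Ndc80 and Cenpe, 4 other genes among the 45 that act at the kinetochore or its checkpoint, were not called. Cenpf and Cdc20, described further down, were called, Cenpf lower and Cdc20 higher. Log2 fold changes were 0.10 for Bub1 and 0.026 for Bub1b (BubR1), checkpoint proteins like Ttk, and 0.025 for Ndc80, the microtubule-binding subunit on which Mps1 acts. Cenpe, a kinetochore motor, had a value of -0.039. The 95% intervals of these 4 did not reach that of Ttk, which ran from -0.86 to -0.49.

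Ube2c, the E2 enzyme with which the anaphase-promoting complex tags cyclin B, was the gene that rose most. It was at 187.0, 157.0 and 174.7 CPM in controls and at 261.8, 264.2 and 273.6 CPM in cKO. All 3 cKO libraries were above all controls, and the mean rose from 172.9 ± 15.0 to 266.5 ± 6.23 CPM (SD, n = 3), 154.2% of control. The log2 fold change was 0.62 ± 0.07 (SE; adjusted p = 1.93e-04 by edgeR), and the call was kept in 6 of 6 fits without 1 library.

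The value of Ube2c is uncertain, since Tnnc2, the troponin C of fast skeletal muscle, runs into it from the other strand. Ube2c (ENSMUSG00000001403.13) is on chromosome 2 from 164769898 to 164778822 on the plus strand, and Tnnc2 from 164777161 to 164779967 on the minus strand (GRCm38). They share 592 exonic bases, 22.8% of the 2600 exonic bases of Ube2c, and whether the counting used strand is not given in the sources used here. Tnnc2 was at 32.7, 19.1 and 24.3 CPM in controls and at 44.5, 30.7 and 50.9 CPM in cKO, with a log2 fold change of 0.73 ± 0.22 (SE; adjusted p = 0.0345 by edgeR). Its groups overlapped, and it moved in the direction of the 9 skeletal muscle markers, whose median log2 fold change was 0.94. The authors' deposited Sleuth table gave 0.07 for Ube2c on the log2 scale, with a q of 0.540, beside 0.64 in the authors' deposited DESeq2 table. The part of Tnnc2 reads in the count of Ube2c was not tested.

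Cdc20, which activates the anaphase-promoting complex, also rose. It was at 102.2, 97.2 and 97.7 CPM in controls and at 107.9, 120.8 and 113.2 CPM in cKO. The groups did not overlap, and cKO replicate 1 was the closest to the controls. The log2 fold change was 0.20 ± 0.05 (SE; adjusted p = 0.0202 by edgeR). The call was kept in 2 of 6 fits without 1 library, and was lost without control replicate 2 or 3 or cKO replicate 2 or 3, at adjusted p values up to 0.0723. In the authors' deposited Sleuth table its q was 0.132, with a log2 value of 0.13. Cdc20 shares 53 exonic bases (2.84%) with Elovl1 on the other strand, whose log2 fold change was -2.09.

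**Figure D2:**
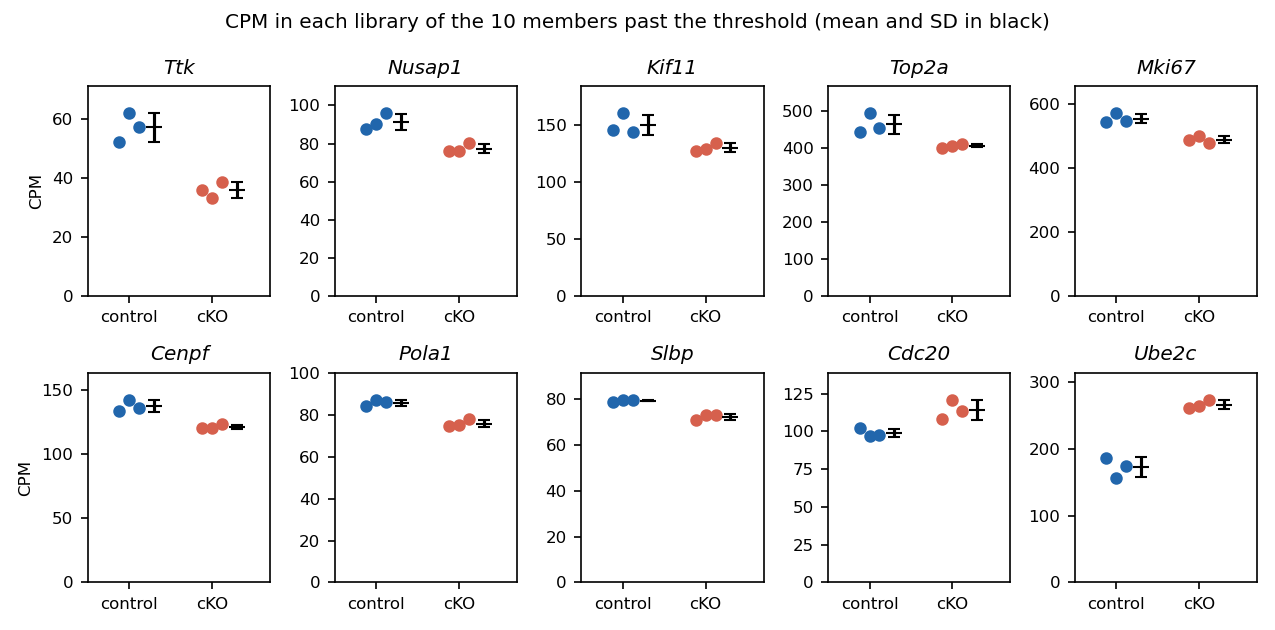
CPM in each of the 6 libraries (points) for the 10 genes past an adjusted p of 0.05, with the mean and SD of each group (n = 3) in black and each axis starting at 0. The groups are apart in all 10 panels, and relative to the control mean the means lie farthest apart in Ttk (57.1 against 35.8 CPM) and Ube2c (172.9 against 266.5 CPM).

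The other mitosis genes that fell were Nusap1, Mki67, Top2a, Kif11 and Cenpf. Nusap1, which bundles spindle microtubules, was at 87.5, 90.5 and 95.9 CPM in controls and at 75.9, 76.1 and 80.1 CPM in cKO. The groups did not overlap, and the log2 fold change was -0.24 ± 0.05 (SE; adjusted p = 0.00703 by edgeR). The call was kept in 6 of 6 fits without 1 library, with values between -0.26 and -0.20.

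Mki67, the source of the Ki-67 antigen that coats mitotic chromosomes, was at 546.1, 571.6 and 548.6 CPM in controls and at 486.7, 500.2 and 480.4 CPM in cKO. All cKO libraries were lower, with a log2 fold change of -0.18 ± 0.05 (SE; adjusted p = 0.0147 by edgeR). Only leaving out control replicate 2 ended the call (adjusted p = 0.0620). Top2a, the topoisomerase that untangles sister DNA, was at 442.9, 492.2 and 451.9 CPM in controls and at 400.1, 405.0 and 408.3 CPM in cKO. Control replicate 2 was the highest, the groups did not overlap, and the log2 fold change was -0.19 ± 0.05 (SE; adjusted p = 0.0230 by edgeR). Its call was lost without control replicate 2 or without any 1 of the cKO replicates, at adjusted p values up to 0.0832.

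Kif11, the motor Eg5 that pushes spindle poles apart, was at 145.9, 160.1 and 143.9 CPM in controls and at 127.3, 128.7 and 134.4 CPM in cKO. The groups did not overlap, and the log2 fold change was -0.20 ± 0.06 (SE; adjusted p = 0.0211 by edgeR). The call was lost without control replicate 1 or 2 or cKO replicate 1 or 2, at adjusted p values up to 0.0808. Cenpf, a large kinetochore protein, was at 133.9, 142.6 and 136.5 CPM in controls and at 120.8, 120.5 and 123.5 CPM in cKO. The cKO libraries were all lower and close to each other, with a log2 fold change of -0.18 ± 0.05 (SE; adjusted p = 0.0158 by edgeR). That call was lost without control replicate 2 or cKO replicate 1 or 2, at adjusted p values up to 0.0608.

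Another 3 mitosis genes had groups that did not overlap and were not called. Aurka, the spindle pole kinase, was at 40.1, 43.5 and 38.8 CPM in controls and at 46.3, 45.01 and 44.6 CPM in cKO. The log2 fold change was 0.15 ± 0.061 (SE; adjusted p = 0.0892 by edgeR). Kif20a, a motor of the central spindle, was at 110.5, 112.5 and 109.8 CPM in controls and at 117.2, 119.6 and 121.4 CPM in cKO. The log2 fold change was 0.11 ± 0.042 (SE; adjusted p = 0.0846 by edgeR). Kif20a shares 29.3% of its exonic bases with Cdc23 on the other strand, whose log2 fold change was 0.12. Birc5 (survivin), a subunit of the chromosomal passenger complex, was at 76.7, 80.0 and 79.6 CPM in controls and at 80.4, 86.5 and 87.0 CPM in cKO. The cKO libraries were all higher, replicate 1 by little, and the adjusted p was 0.135 by edgeR. Over all 45 genes the groups did not overlap for 16 (35.6%), 5 of S phase and 11 of mitosis, where this held for 49.9% of all genes tested.

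The remaining mitosis genes overlapped between the groups. Log2 fold changes were -0.015 for Ccnb1 and -0.029 for Ccnb2, the B cyclins that drive entry into mitosis, and 0.10 for Plk1, a kinase of the same step. Values were 0.053 for Aurkb and 0.040 for Cdca8 (borealin), which sit with Birc5 in the passenger complex. Tpx2, which activates Aurora A on the spindle, had a value of 0.075. Kif23 and Prc1, which organise the central spindle for cytokinesis, had values of -0.078 and -0.016. None of these 8 was called.

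Some of these values may hold reads of a neighbouring gene. Of the 45 genes, 15 share exonic bases with another annotated gene, 11 of them with a gene that was tested. The shares were highest for Fen1, 78.8% of whose exonic bases lie in Gm10143, and for Gins2, 67.3% of whose exonic bases lie in Gse1 (log2 fold change -0.44), both on the other strand. Rfc4 shares 12.7% with Eif4a2, Prc1 11.1% with Rccd1 and Orc1 10.8% with Gm12743. Slbp shares 7.8% with Gm10459 and Nusap1 4.24% with Oip5. The values of such genes, Fen1 and Gins2 above all, are uncertain.

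Set against each other, the S phase and mitosis classes kept a ratio that overlapped between the groups. The S phase genes summed to 2196, 2295 and 2184 CPM in control replicates 1 to 3 and to 2168, 2281 and 2136 CPM in cKO replicates 1 to 3. The mitosis genes summed to 2965, 3136 and 2972 CPM in controls and to 2922, 2989 and 2998 CPM in cKO. Both ranges overlapped between the groups, and replicate 2 of each group had the highest S phase sum. The mitosis sum includes Ube2c, whose value is uncertain. Ube2c was at 187.0, 157.0 and 174.7 CPM in controls and at 261.8, 264.2 and 273.6 CPM in cKO. The overlap of the mitosis sums depends on these values: with Ube2c left out, every cKO sum lies below every control sum. The ratios below that use the mitosis sum include Ube2c too. With it left out, the ratios of the groups still overlap, but no cKO ratio lies above the highest control.

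The ratio of the mitosis sum to the S phase sum was 1.35, 1.37 and 1.36 in controls and 1.35, 1.31 and 1.40 in cKO. The means were 1.36 ± 0.00816 and 1.35 ± 0.0467 (SD, n = 3). With Ube2c included, the cKO ratios thus lay on both sides of the controls and were more spread. The mean log2 CPM of the mitosis genes minus that of the S phase genes was 0.45, 0.46 and 0.43 in controls and 0.43, 0.41 and 0.50 in cKO. The cKO mean was lower than the control mean by 0.004, less than the spread between libraries (SD 0.015 in controls and 0.047 in cKO). This difference compares genes within a library and does not depend on how libraries are scaled.

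The scaling of libraries changed which genes were called. With upper-quartile scaling, which moved the median log2 fold change of all genes from -0.008 to 0.094, 5 S phase genes were higher and 0 lower, and 7 mitosis genes were higher and 1 lower. Of all genes tested 23.5% were higher and 14.1% lower with that scaling, so that 62.4% of called genes were higher, against 45.5% with TMM. Pola1, Slbp, Mki67, Top2a, Kif11, Cenpf and Nusap1 were then not called. Mcm2, Mcm3, Cdc6, Rrm2, Tyms, Aurka, Aurkb, Plk1, Kif20a and Birc5 were then called higher. Ttk at -0.57, Ube2c at 0.73 and Cdc20 at 0.30 were called with both scalings.

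Relative to basal keratins the picture was different. Krt5 and Krt14, keratins of the dividing basal layer, summed to 3614, 3169 and 3344 CPM in controls and to 1777, 1919 and 2128 CPM in cKO. The cKO libraries were all lower, with a mean of 1942 ± 176 against 3376 ± 224 CPM (SD, n = 3). Log2 fold changes were -0.66 for Krt5 and -1.19 for Krt14, so the scale also depends on which keratin is used. Per CPM of the 2 keratins, the S phase sum was 0.608, 0.724 and 0.653 in controls and 1.22, 1.19 and 1.00 in cKO, 1.72 times as high on average. The mitosis sum was 0.821, 0.989 and 0.889 in controls and 1.64, 1.56 and 1.41 in cKO, 1.71 times as high. All cKO libraries were above all controls on both ratios.

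With libraries scaled to Krt5 and Krt14 in edgeR, 22 of 22 S phase genes and 22 of 23 mitosis genes were called higher and 0 lower. Of all genes tested 74.3% were higher and 4.65% lower on that scale, and the median log2 fold change was 0.79 over all genes, 0.80 over S phase genes and 0.82 over mitosis genes. The medians of both classes thus lay near that of all genes. Ttk, at 0.12, was the gene not called (adjusted p = 0.410 by edgeR), and Ube2c was at 1.43. The share of the keratins' fall that comes from fewer basal cells or from less keratin RNA per cell cannot be told apart here, nor can the share of the 45 genes' RNA that comes from dermis.

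**Figure D3:**
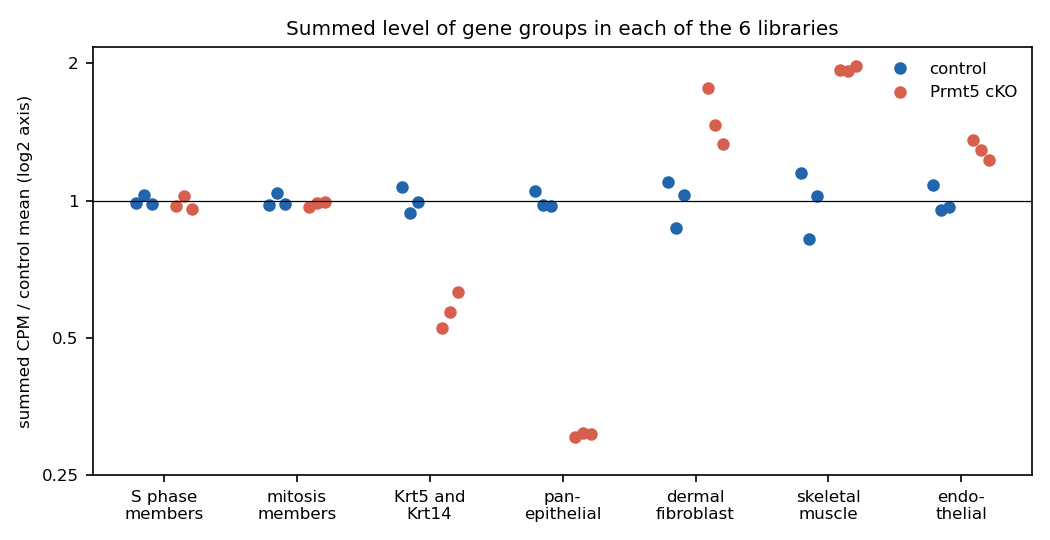
Summed CPM of the S phase genes, the mitosis genes and 5 marker groups in each of the 6 libraries (points), divided by the mean of the 3 controls, on a log2 axis. The S phase and mitosis sums of both groups lie around 1 (cKO means 0.987 and 0.982 of control), while Krt5 and Krt14 (0.575) and the pan-epithelial sum lie below 1 and the fibroblast, muscle and endothelial sums above 1 in all 3 cKO libraries. The mitosis sum includes Ube2c, whose value is uncertain, and with Ube2c left out every cKO sum lies below every control sum.

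The authors' 2 deposited tables were compared by the size of the difference between their values for each of the 45 genes. On the log2 scale (the Sleuth b, a natural log, was divided by 0.693, the natural log of 2), 43 of the 45 genes differed by 0.19 or less between the authors' deposited Sleuth and DESeq2 tables. A difference over 0.2 was seen in 2 genes, Ube2c and Orc1, and in 17.2% of the 16186 genes in both tables. The limit of 0.2 is about as large as most of the changes themselves. Without Ttk and Ube2c, the log2 fold changes by edgeR ran from -0.24 to 0.20. A difference within the limit therefore cannot show that both tables give the same small change. Cenpf lay within it, at -0.16 in the authors' deposited DESeq2 table and at 0.03 in the authors' deposited Sleuth table. Orc1 was at 0.005 in the authors' deposited DESeq2 table and at 0.39 in the authors' deposited Sleuth table, with a q of 0.170. Ttk was at -0.66 in both of the authors' deposited tables.

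At a q under 0.05 the authors' deposited Sleuth table held 7 of the 45 genes, where 35.3% of its 16400 genes passed. These were Pola1, Uhrf1, Mki67, Top2a, Kif11, Nusap1 and Ttk, all with a b below 0. Of these 7, 6 were also called by edgeR on the counts, and Uhrf1 was the other. Cenpf, called lower by edgeR, had a Sleuth value of 0.03 on the log2 scale in the authors' deposited table, with a q of 0.932.

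**Figure D4:**
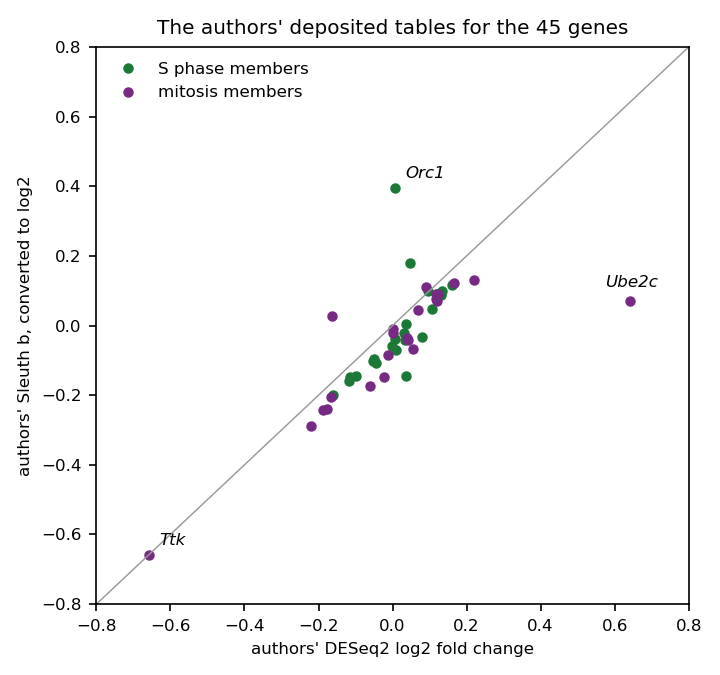
Log2 fold change of the 45 genes in the authors' deposited DESeq2 table (x axis) against the Sleuth value converted to the log2 scale (y axis), with the line of equal values. Ube2c (0.64 against 0.07) and Orc1 (0.005 against 0.39) lie off the line by more than 0.2.

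Among the mitosis genes, those with more exonic bases tended to have lower log2 fold changes. Spearman's rho between the log2 fold change and the exonic length was -0.61 over the 23 mitosis genes and -0.60 over 21 of them without Ttk and Ube2c. It was -0.03 over the 22 S phase genes and 0.003 over the 14840 protein-coding genes tested. Over 63 other mitosis genes, listed below, rho was -0.14. These values describe genes that share the same 6 libraries and are not independent replicates, and the part of length in any gene's value was not tested. The longest, Cenpf with 15433 exonic bases and Mki67 with 10061, fell. From the shortest up, the log2 fold changes were -0.029 for Ccnb2 with 1531 bases, 0.20 for Cdc20 with 1868, 0.10 for Plk1 with 2199, 0.15 for Aurka with 2531 and 0.62 for Ube2c with 2600, of which Cdc20 and Ube2c were called.

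**Figure D5:**
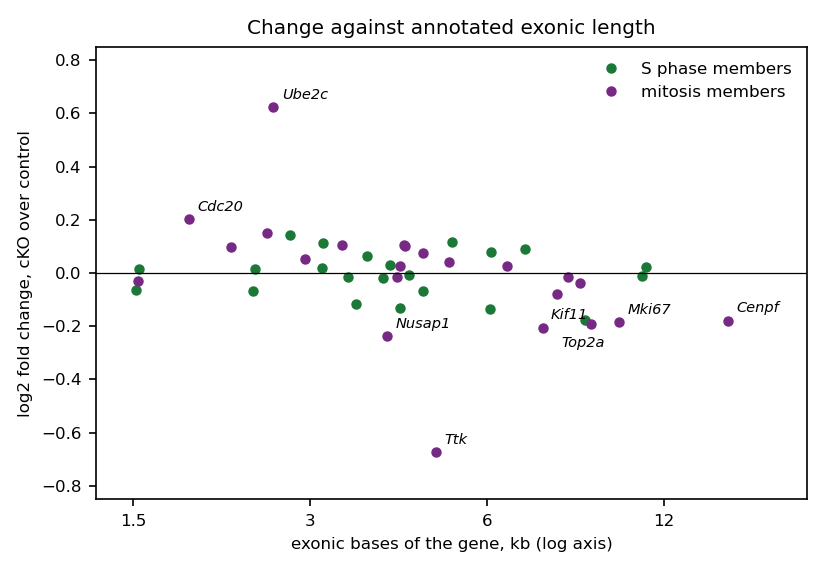
Log2 fold change against exonic bases (log axis) for S phase and mitosis genes. The mitosis genes, from the shortest, Ccnb2 (1531 bases, -0.029), to the longest, Cenpf (15433 bases, -0.18), have a rho of -0.61, and the S phase genes have a rho of -0.03.

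The wider cell cycle machinery was read from 117 further genes in 6 lists. Of these 117, 6 were higher, 12 lower and 99 not called (15.4% called, beside 35.9% of all genes tested, 16.3% higher and 19.6% lower), and the median log2 fold change was -0.004. In origin licensing and firing, 1 of 19 was higher and 2 lower, with a median of 0.03. Orc4, an ORC subunit, was at 0.36 (adjusted p = 0.0172 by edgeR). It shares 446 exonic bases with Acvr2a on the other strand, whose log2 fold change was -0.49. Ticrr (treslin), needed for origin firing, was at -0.29, and Wdhd1, which ties the primer polymerase to the helicase, was at -0.18.

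At the fork 0 of 23 were higher and 2 lower (all genes tested: 16.3% higher, 19.6% lower), with a median of 0.02, and both were larger than any change among the S phase genes. Rnaseh2a, the catalytic subunit of the RNase H that removes ribonucleotides from DNA, was at 33.5, 36.2 and 34.3 CPM in controls and at 24.2, 24.5 and 21.3 CPM in cKO. Its groups did not overlap (log2 fold change -0.57 ± 0.08, SE; adjusted p = 6.75e-04 by edgeR), and it shares 177 exonic bases with Prdx2 on the other strand, whose log2 fold change was -0.55. Pole3, a small subunit of the leading strand polymerase, was at 71.5, 76.1 and 74.3 CPM in controls and at 54.2, 54.3 and 55.9 CPM in cKO. The cKO libraries were all lower (log2 fold change -0.43 ± 0.05, SE; adjusted p = 2.04e-04 by edgeR).

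In nucleotide supply and chromatin copying 0 of 12 were higher and 2 lower, where 35.9% of all genes tested were called, with a median of -0.09. Dnmt1, the maintenance DNA methyltransferase that Uhrf1 brings to the fork, was at 310.1, 330.5 and 301.6 CPM in controls and at 254.5, 252.9 and 241.6 CPM in cKO. All cKO libraries lay below the controls (log2 fold change -0.33 ± 0.05, SE; adjusted p = 0.00165 by edgeR). Nasp, a histone chaperone, was at -0.21.

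At the kinetochore and checkpoint 0 of 20 were higher and 2 lower (10% called, beside 35.9% of all genes tested), with a median of -0.002. Knl1, the scaffold that Mps1 phosphorylates, was at -0.21 and Mis12 at -0.23. Mis12 shares 231 exonic bases with Derl2 on the other strand, whose log2 fold change was -0.23. Among spindle, motor and cytokinesis genes 3 of 23 were higher and 1 lower, with a median of -0.009. Cit, the citron kinase of the cleavage furrow and midbody, was at 24.4, 25.6 and 25.9 CPM in controls and at 39.3, 34.1 and 33.4 CPM in cKO. The cKO libraries were all higher (log2 fold change 0.49 ± 0.08, SE; adjusted p = 0.00172 by edgeR). Kif18b was at 0.28, Hmmr at 0.17 and Kif18a, a motor that dampens chromosome movement, at -0.30.

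Among genes of condensation, separation and mitotic control 2 of 20 were higher and 3 lower (25% called, beside 35.9% of all genes tested), with a median of -0.03. Cdc25c, a phosphatase that activates the mitotic kinase, was at 0.26 and Nek2, a centrosome kinase, at 0.21. Fbxo5, an inhibitor of the anaphase-promoting complex, was at -0.22, and the condensin II subunits Ncapd3 and Ncapg2 were at -0.20 and -0.19. The adjusted p values of these 18 genes lay under 0.05 by edgeR, and the largest, that of Hmmr, was 0.0478. Of the 18, 16 had an adjusted p under 0.05 in the authors' deposited DESeq2 table, and the others were Wdhd1 (0.121) and Fbxo5 (0.0542). Of the 18, 11 had a q under 0.05 in the authors' deposited Sleuth table. The other 7 were Cit (q = 0.127), Hmmr (0.158), Wdhd1 (0.229), Mis12 (0.162), Nek2 (0.270), Ncapd3 (0.101) and Knl1 (0.0615).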

How the data were processed

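The deposited counts are the authors' whole-number values per gene, and the labels' protocols give a stranded mRNA kit. Their totals are above the number of reads per sample in the labels, so a count may stand for less than 1 read. The tools named in the submitters' processing notes are STAR, StringTie and DESeq2, with the build mm10. Their roles, their versions and the counting step are not given in the labels. The deposited DESeq2 log2 fold changes and p-values, and the Sleuth b (a natural log) and q-values, are the authors', per the file headers. The ratio of b to the DESeq2 log2 fold change had a median of 0.661 over genes beyond 1 on the log2 scale, near 0.693, the natural log of 2.

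The counts were tested with edgeR 4.0.16 (R 4.3.3), which kept genes by filterByExpr, scaled libraries by TMM and compared the groups by its quasi-likelihood test with no other term, at a Benjamini-Hochberg adjusted p of 0.05 over 19227 genes. The biological coefficient of variation was 15.5%. CPM uses TMM-scaled library sizes, and levels per kilobase use exonic bases of GENCODE M21 (GRCm38), which also gave gene positions and overlaps. The edgeR step was also run on simulated data in which few genes changed, as many up as down. Such data cannot test the scaling of libraries that differ in tissue makeup, as these do. Alternatives were RLE, upper-quartile and basal keratin scaling, no filter, DESeq2 1.42.0, limma-voom (limma 3.58.1), a replicate block, an adjusted p of 0.01, each library left out and the authors' own table. Python 3.11.15 and SciPy 1.17.1 made the summaries and the exact test.

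The 45 genes, the 6 other lists and the markers were chosen with earlier results of these data known, so no list was tested. Every one of the 45 genes is named. Values per library are given for called genes, for genes whose groups do not overlap and for the gene with the highest level per length in each class. Of the other cell cycle lists all called genes are named, with library values for 4 chosen after their values were seen. Tnnc2, Elovl1, Cdc23, Acvr2a, Prdx2 and Derl2 are among the genes named because they overlap these.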

Additional observations from a re-analysis of the deposited data

How the results depend on the processing

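The count of S phase genes called, 2 as reported, was 1 with RLE scaling, 1 with no filter, 1 with DESeq2, 1 in the authors' deposited DESeq2 table, 5 with upper-quartile scaling, 22 with either keratin scaling and 0 at an adjusted p of 0.01. Leaving out 1 library gave 0 to 1. The count of mitosis genes, 8 as reported, was 22 scaled to Krt5 and Krt14, 23 with Krt15 added, 3 at an adjusted p of 0.01 and 4 to 7 without 1 library. With limma-voom both counts were as reported. Of all genes tested, 74.3% were called higher and 4.65% lower when scaled to Krt5 and Krt14. With upper-quartile scaling these shares were 23.5% and 14.1%.

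The median log2 fold change of S phase genes was 0.11 with upper-quartile scaling, 0.80 scaled to Krt5 and Krt14, 1.06 with Krt15 added, and -0.045 to 0.024 without 1 library. That of mitosis genes was 0.13, 0.82 and 1.08 with those 3 scalings, and -0.0074 to 0.065 without 1 library. The count over all genes, 6906 as reported, was 15172 and 16536 with the keratin scalings and 4398 at an adjusted p of 0.01. Prmt5 was at -0.25 scaled to Krt5 and Krt14 (adjusted p = 0.161 by edgeR), where the median of all genes was 0.79. The difference between the classes kept its size within the spread between libraries under all 8 alternatives tried, and lay between -0.030 and 0.016 without 1 library. Alternatives that only rescale libraries could not move this difference, since it compares genes within a library, so they are no test of it.

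Scaled to Krt5 and Krt14, 22 log2 fold changes turned from below to above 0: 0.68 for Mcm4, 0.79 for Mcm5, 0.73 for Mcm6, 0.79 for Mcm7, 0.73 for Pcna, 0.73 for Gins1, 0.79 for Rrm1, 0.62 for Pola1, 0.67 for Uhrf1, 0.67 for Slbp, 0.78 for Orc1, 0.62 for Mki67, 0.60 for Top2a, 0.78 for Ccnb1, 0.77 for Ccnb2, 0.59 for Kif11, 0.72 for Kif23, 0.75 for Cenpe, 0.62 for Cenpf, 0.56 for Nusap1, 0.12 for Ttk and 0.78 for Prc1. With Krt15 added, the same 22 were 0.94 for Mcm4, 1.05 for Mcm5, 0.99 for Mcm6, 1.05 for Mcm7, 0.99 for Pcna, 0.99 for Gins1, 1.04 for Rrm1, 0.88 for Pola1, 0.93 for Uhrf1, 0.92 for Slbp, 1.04 for Orc1, 0.88 for Mki67, 0.86 for Top2a, 1.04 for Ccnb1, 1.03 for Ccnb2, 0.85 for Kif11, 0.98 for Kif23, 1.02 for Cenpe, 0.88 for Cenpf, 0.82 for Nusap1, 0.38 for Ttk and 1.04 for Prc1. These scalings divide every gene by keratin counts that are lower in cKO, which by construction moves all genes up. The cause of the other shifts was not tested.

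With a replicate block the counts were 1 for S phase genes, 8 for mitosis genes and 6098 for all genes, and of the 45 genes Slbp lost its call. Nothing in the labels says that the replicate numbers pair the embryos. Same-numbered libraries had correlations of their deviations from the group means between -0.08 and -0.04. With 3 libraries per group, such values cannot show whether a litter or batch was shared. For the 35 genes not called, the 95% intervals lay between -0.26 and 0.31, and differences of that size or smaller in those genes are not shown to be absent.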
